A study of Mus musculus with 31 samples.

Results

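Prostaglandins and leukotrienes are signalling lipids made from arachidonic acid, and the 10 genes described here encode enzymes that make them or break them down, with 1 accessory protein. They are Ptgs1, Ptgs2, Ptges, Hpgds, Tbxas1, Alox5, Alox5ap, Lta4h, Ltc4s and Hpgd, chosen by name from the 24411 entries of a table of estimated RNA-seq read counts per gene. Each name matched 1 entry, and all 10 passed the filter on low counts that 12337 genes passed. The libraries came from C57BL/6J mice, whose age the labels used here do not give. In all of them the sorted cells were CD11b+ Ly6G- Ly6C-high MHC-II- monocytes. The groups were blood of healthy mice, blood of mice with a subcutaneous LLC (Lewis lung carcinoma) tumor, and the LLC tumors themselves, with 3 libraries each. The labels number the libraries as replicates and do not say whether each came from a separate mouse, so the p-values measure the spread between these libraries, which may be technical. No sequencing batch is named in the labels, and a batch that ran with the groups cannot be told apart from these.

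Phospholipases free arachidonic acid from membranes. The cyclooxygenases, encoded by Ptgs1 and Ptgs2, turn it into prostaglandin H2, which separate synthases convert into prostaglandin E2, prostaglandin D2, thromboxane or prostacyclin, whereas 5-lipoxygenase opens the path to the leukotrienes. 15-hydroxyprostaglandin dehydrogenase, encoded by Hpgd, starts the breakdown of prostaglandin E2. Monocytes and macrophages are known sources of these lipids, and prostaglandin E2 is widely studied in tumors as a signal that dampens immune responses.

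Ptgs2 and Ptges were higher, and Hpgd lower, in the LLC tumor libraries than in either blood group. Their upstream sequences are shown because they are the genes the comparison of synthesis with breakdown rests on. The sequences are from RefSeq (GRCm38.p6) and run 5′ to 3′ and end at the base before the start of the listed transcript, with matches to the searched motifs in capitals. The window of Ptgs2 is chr1:150099781-150100030 on the plus strand, that of Ptges chr2:30903298-30903547 on the minus strand, and that of Hpgd chr8:56294302-56294551 on the plus strand. The protein-coding genes span chr1:150100031-150108234 (Ptgs2), chr2:30889471-30931020 (Ptges) and chr8:56294552-56321046 (Hpgd), so the Ptges start used lies inside the span of that gene.
Ptgs2: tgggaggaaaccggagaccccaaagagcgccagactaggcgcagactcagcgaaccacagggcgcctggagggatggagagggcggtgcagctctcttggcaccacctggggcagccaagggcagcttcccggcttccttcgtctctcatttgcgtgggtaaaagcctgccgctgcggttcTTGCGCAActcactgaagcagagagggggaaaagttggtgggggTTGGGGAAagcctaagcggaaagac
Ptges: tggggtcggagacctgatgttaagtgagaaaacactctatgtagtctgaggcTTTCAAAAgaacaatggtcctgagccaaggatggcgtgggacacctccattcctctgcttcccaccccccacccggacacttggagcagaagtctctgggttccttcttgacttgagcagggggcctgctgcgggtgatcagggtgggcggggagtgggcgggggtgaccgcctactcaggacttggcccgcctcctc
Hpgd: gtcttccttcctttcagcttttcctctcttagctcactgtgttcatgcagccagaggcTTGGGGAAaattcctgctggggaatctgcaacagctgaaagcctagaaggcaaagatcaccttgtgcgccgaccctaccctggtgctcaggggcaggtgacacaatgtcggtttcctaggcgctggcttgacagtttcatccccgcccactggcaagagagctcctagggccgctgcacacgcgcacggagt
Every match in capitals is to the C/EBP motif TTNCNNAA. It was searched on both strands in the 300 bases from 250 before to 50 after the start, together with 5 others, and all 6 were chosen with these sequences in view. The C/EBP motif was present for 4 of the 9 genes with an entry, against 40.7% of 32851 promoters in the table. Ptgs2 held a pair of matches, at bases -69 to -62 and -25 to -18, Ptges held 1 at -198 to -191 and Hpgd 1 at -192 to -185. After the start, outside the printed bases, Ptgs2 held the cAMP response element core TGACG (20.8% of promoters) at bases 14 to 18, overlapping the E-box CACGTG (7.15%) at 17 to 22. Hpgd held TATAAA (13.6%) at bases 5 to 10. The AP-1 motif TGANTCA (7.81%) and the NF-kB consensus (4.51%) were not found in these 3 windows. A match is a description of letters, and binding was not measured in the values used here.

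The libraries held between 10457478 and 20706410 counts, so that 3 counts corresponded to 0.145 to 0.287 CPM (counts scaled to a common library total). All 9 monocyte markers were present in every group. Their summed level was 33011 to 36981 CPM in healthy blood, 23602 to 27034 in LLC blood and 14819 to 19324 in tumor. Lyz2, which shares reads with other genes, was the largest part, at 25713 to 29077, 15640 to 19003 and 6898 to 9308 CPM. Of the 9 genes 3 rose in tumor against LLC blood (Cd14, Itgam and Fcgr1) and 5 fell. Over all tested genes 29.6% were called as higher there and 31.7% as lower. Ly6c2, which encodes the Ly6C antigen of the sort and shares reads with its neighbours, was at 1571 to 1728, 1099 to 1237 and 272 to 472 CPM. Markers of Ly6C-low monocytes, a list added after the values were seen, summed to 3280 to 3286, 3143 to 3791 and 1495 to 1824 CPM. These sums mix opposite changes. Of its 8 genes, 2 rose and 6 fell in tumor against LLC blood. Cd9 went from 8.61 to 13.3 CPM to 401 to 515 CPM, and Nr4a1 from 275 to 540 to 467 to 601. Itgal was the largest part in blood. Between the blood groups Pou2f2 was called as higher, and Eno3 and Cd9 as lower. Macrophage markers summed to 1310 to 1527, 747 to 782 and 1762 to 2558 CPM, with Apoe the largest part in healthy blood. Of the 10 macrophage genes 8 rose and 1, Adgre1, fell in tumor against LLC blood. Mrc1 went from 6.13 to 8.42 CPM to 282 to 496 CPM, and C1qa from 1.38 to 2.01 CPM to 136 to 245 CPM. Their part in the tumor changes below was not tested. In such bulk libraries, fewer cells of a type and less RNA per cell cannot be told apart.

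In the LLC tumor libraries, 6 of the 10 genes rose and 1 fell against LLC blood (edgeR quasi-likelihood test, adjusted p under 0.05 over all genes tested), while 61.3% of all tested genes were called, 29.6% as higher and 31.7% as lower. The higher genes were Ptgs1, Ptgs2, Ptges, Hpgds, Alox5 and Ltc4s, and the lower gene was Hpgd. The median log2 fold change was 1.86 over the 10 genes and -0.03 over all tested genes. Between LLC blood and healthy blood, 1 gene rose (Lta4h) and 2 fell (Hpgd and Alox5), where 23.6% of tested genes were called, 14.0% as higher and 9.61% as lower. The medians in that comparison were -0.19 and -0.01. Against healthy blood, LLC tumor had 6 genes higher and 1 lower, where 66.5% of tested genes were called, 33.5% as higher and 33.0% as lower. There Lta4h was called and Alox5 was not, and the medians were 1.73 and -0.00. The LLC blood libraries and healthy blood libraries each enter 2 of these comparisons, as do the tumor libraries, so the comparisons are not independent. LLC tumor and LLC blood did not overlap in CPM for 8 of the 10 genes, against 68.3% of tested genes. The counts without overlap were 5 of 10 between the blood groups (51.3% of tested genes) and 8 of 10 between tumor and healthy blood (70.6%). Calls of at least 2-fold numbered 7 in tumor against LLC blood (28.7% of tested genes), 1, Hpgd, between the blood groups (6.23%) and 6 in tumor against healthy blood (32.3%).

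**Figure D1:**
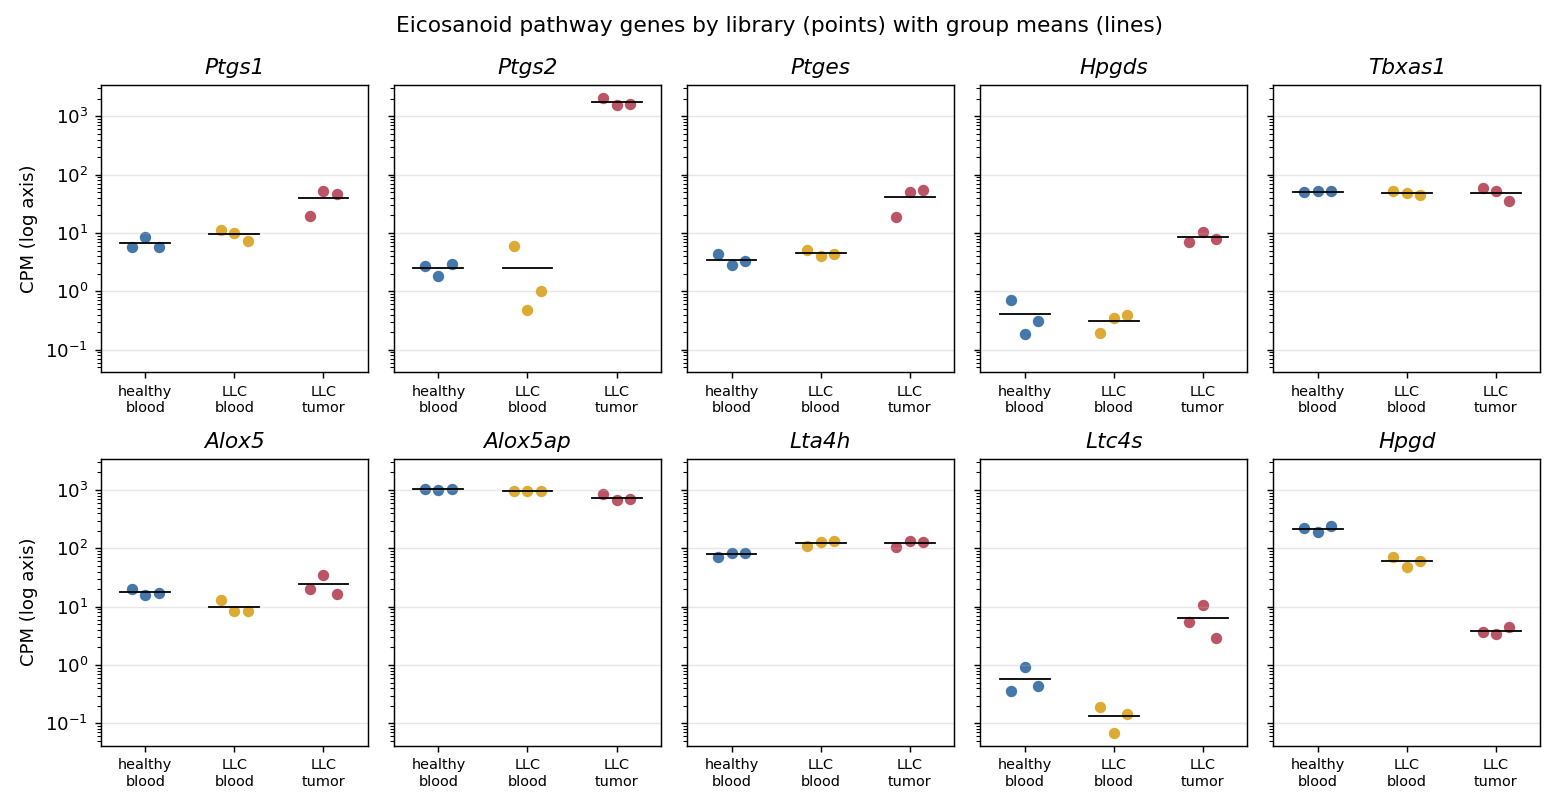
Level of each of the 10 genes in CPM on a log axis. Points are single libraries of healthy blood, LLC blood and LLC tumor, and horizontal lines are group means. Ptgs2 lies at 1545 to 2061 CPM in the tumor libraries and at 5.93 CPM or less in the 6 blood libraries, and Hpgd falls from 192 to 239 CPM in healthy blood to 3.37 to 4.49 CPM in tumor.

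Ptgs2 (ENSMUSG00000032487) encodes cyclooxygenase-2, the inducible form of the enzyme that commits arachidonic acid to prostaglandins. Healthy blood libraries held 2.72, 1.84 and 2.88 CPM, LLC blood libraries 5.93, 0.484 and 1.01 CPM, and tumor libraries 2061, 1545 and 1631 CPM. All 3 tumor libraries lay far above all 6 blood libraries, while the blood groups overlapped and LLC blood 1 stood above the other libraries of its group. The mean was 1746 ± 276 CPM in tumor and 2.48 ± 3.00 CPM in LLC blood (SD, n = 3 each), a 705-fold difference. The log2 fold change was 9.89 ± 0.70 (SE; edgeR adjusted p = 3.11e-06), which ranked 20th from the highest of 12337 tested genes. Leaving out LLC blood 1 raised it to 11.30. Against healthy blood (2.48 ± 0.558 CPM) the log2 fold change was 9.66 ± 0.69 (edgeR adjusted p = 2.67e-06). LLC blood against healthy blood was not called, with a log2 fold change of -0.23 (95% interval -1.84 to 1.38; edgeR adjusted p = 0.849). This value rested on LLC blood 1: without it the log2 fold change was -1.65 (edgeR adjusted p = 0.0377), and without LLC blood 2 or 3 it was 0.28 or 0.23.

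Ptgs1 (ENSMUSG00000047250) encodes cyclooxygenase-1, the form that many cells carry constitutively. Its level was 5.79, 8.60 and 5.82 CPM in healthy blood, 11.1, 9.96 and 7.34 CPM in LLC blood and 19.6, 51.5 and 46.6 CPM in tumor. The tumor libraries were all higher than the blood libraries, and LLC tumor 1 was the lowest of them. The log2 fold change of tumor against LLC blood was 2.22 ± 0.29 (edgeR adjusted p = 0.000139) and that against healthy blood 2.67 ± 0.30 (edgeR adjusted p = 4.36e-05). The blood groups overlapped, with a log2 difference of 0.45 ± 0.30 that was not called (edgeR adjusted p = 0.316).

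Ptges (ENSMUSG00000050737) encodes the inducible microsomal prostaglandin E synthase that acts on the product of the cyclooxygenases. Its libraries were at 4.36, 2.83 and 3.25 CPM in healthy blood, 5.07, 4.01 and 4.30 CPM in LLC blood and 18.9, 51.0 and 53.7 CPM in tumor. Tumor libraries again lay above all blood libraries, with LLC tumor 1 the lowest of the 3. The mean rose from 4.46 ± 0.546 CPM in LLC blood to 41.2 ± 19.4 CPM in tumor, a log2 fold change of 3.37 ± 0.32 (edgeR adjusted p = 1.81e-05). Against healthy blood it was 3.70 ± 0.32 (edgeR adjusted p = 9.72e-06). LLC blood and healthy blood differed by 0.33 ± 0.34, which was not called (edgeR adjusted p = 0.523).

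Of the remaining prostanoid synthases, Hpgds rose in tumor and Tbxas1 was not called. Hpgds (ENSMUSG00000029919) encodes the hematopoietic prostaglandin D synthase, and Tbxas1 (ENSMUSG00000029925) encodes thromboxane A synthase. Hpgds had 10, 3 and 5 counts in healthy blood, 2, 5 and 8 in LLC blood and 78, 119 and 90 in tumor. Tumor counts were high in all 3 libraries, and every blood library held 10 or fewer. The ratio of summed counts, corrected for library totals, of tumor to LLC blood was 25.7 (95% interval 15.3 to 46.6, counting error only), with a log2 fold change of 4.87 ± 0.45 (edgeR adjusted p = 1.53e-05). Against healthy blood the log2 fold change was 4.56 ± 0.43 (edgeR adjusted p = 1.64e-05) and 5.20 without healthy blood 1. The blood groups differed by -0.31 ± 0.51 (edgeR adjusted p = 0.744). Tbxas1 was at 49.5, 51.5 and 52.2 CPM in healthy blood, 52.9, 49.1 and 44.0 in LLC blood and 58.2, 51.4 and 35.1 in tumor. Its groups overlapped and no comparison was called. The 95% interval of its log2 fold change was -0.25 to 0.67 for tumor against LLC blood and -0.56 to 0.36 between the blood groups. Without LLC tumor 3 the tumor value was 0.43 and called as higher (edgeR adjusted p = 0.0333).

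Hpgd (ENSMUSG00000031613) encodes the dehydrogenase that inactivates prostaglandin E2, and it was the one gene of the 10 called as lower in all 3 comparisons. Its libraries held 223, 192 and 239 CPM in healthy blood, 72.6, 47.7 and 60.1 CPM in LLC blood and 3.70, 3.37 and 4.49 CPM in tumor. No library of one group reached the range of another, and the order was healthy blood, LLC blood, LLC tumor. The means were 218 ± 24.0, 60.1 ± 12.5 and 3.85 ± 0.578 CPM (SD, n = 3 each), a 3.62-fold drop from healthy to LLC blood and a further 15.6-fold drop to tumor. The log2 fold changes were -1.89 ± 0.16 (edgeR adjusted p = 0.000124) and -3.76 ± 0.20 (edgeR adjusted p = 6.37e-07). Between tumor and healthy blood the level fell by 5.65 on the log2 scale (SE 0.21; edgeR adjusted p = 1.25e-07). From the lowest fold change, Hpgd ranked 312th of 12337 tested genes between the blood groups and 48th between tumor and LLC blood.

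**Figure D2:**
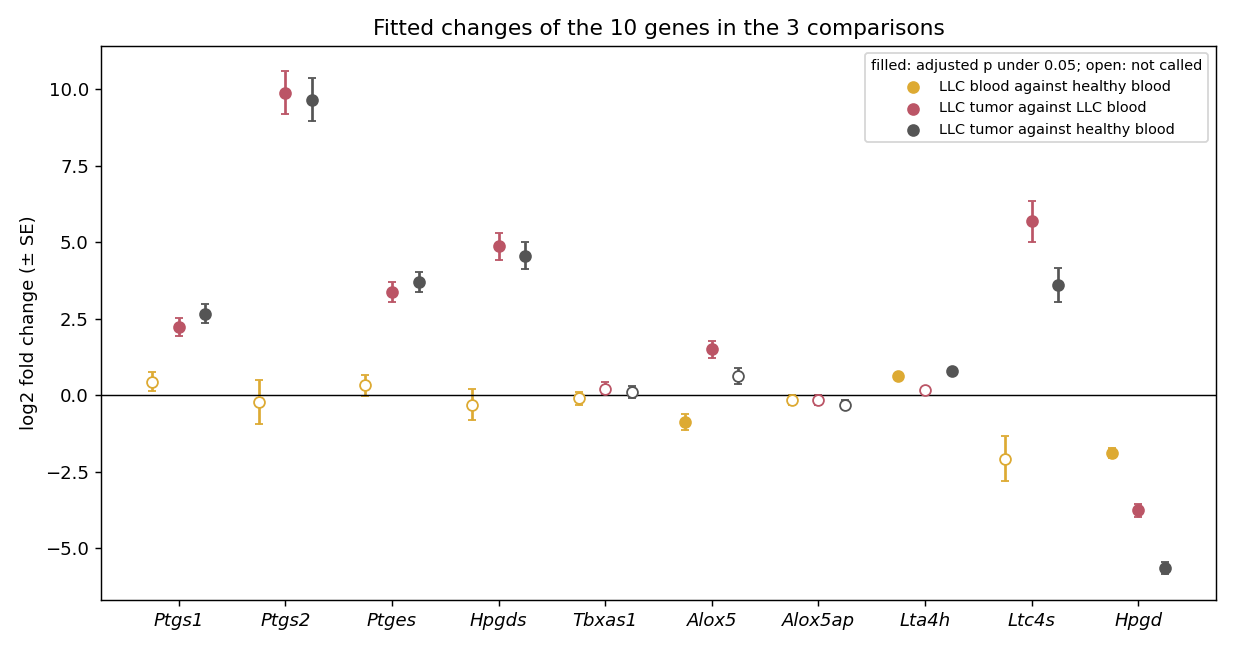
Fitted log2 fold change with its standard error for each gene in the 3 comparisons. Filled points passed an adjusted p of 0.05 and open points did not. Ptgs2 stands at 9.89 and 9.66 in the tumor comparisons, and Hpgd is below 0 in each of the 3.

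The balance of synthesis to breakdown was described per library as the log2 ratio of CPM plus 0.25 of Ptgs2 or Ptges to that of Hpgd. Since levels of different genes depend on their lengths, only changes of the ratio between groups are read. For Ptgs2 it was -6.23, -6.52 and -6.26 in healthy blood, -3.56, -6.03 and -5.58 in LLC blood and 9.03, 8.74 and 8.43 in tumor. For Ptges the ratio was -5.60, -5.96 and -6.09, then -3.78, -3.49 and -3.73, then 2.27, 3.82 and 3.51. Both ratios were highest in all tumor libraries, and both were higher in each LLC blood library than in each healthy blood library. The Ptges ratio rose by 2.22 between healthy and LLC blood (pooled SD 0.21) and by 6.87 between LLC blood and tumor (0.59). The Ptgs2 ratio rose by 1.28 in blood (0.94) and by 13.78 in tumor (0.95). Without LLC blood 1, the change of the Ptgs2 ratio in blood was 0.53. In blood, the change of the Ptges ratio came with a called fall of Hpgd and no called change of Ptges.

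**Figure D3:**
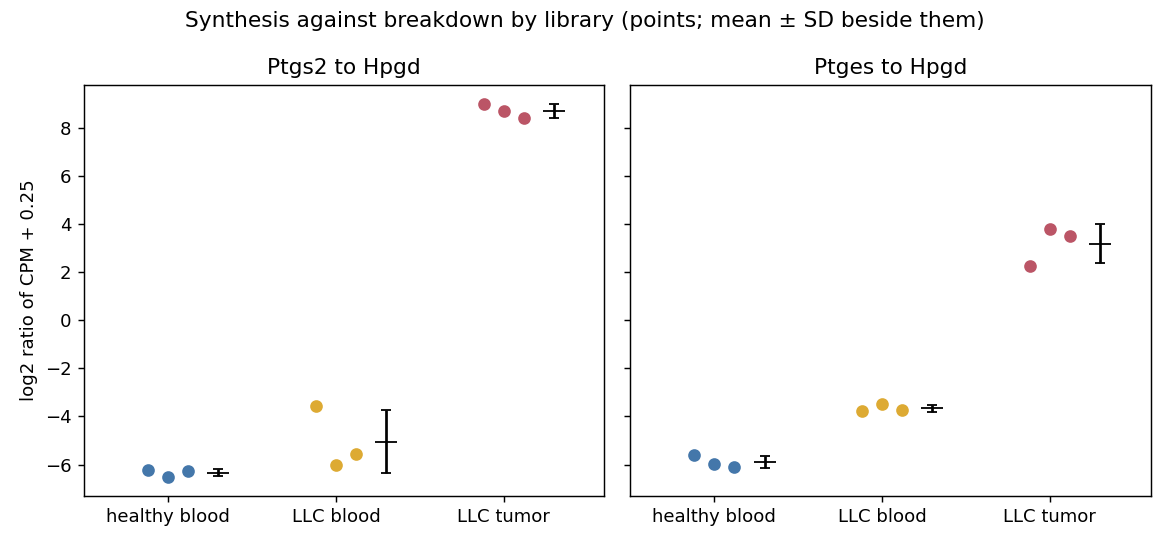
Log2 ratio of CPM plus 0.25 of Ptgs2 (left) and Ptges (right) to Hpgd. Points are libraries, and bars beside them give mean ± SD. The tumor libraries lie at 8.43 to 9.03 for Ptgs2 and at 2.27 to 3.82 for Ptges, above every blood library, and LLC blood 1 stands apart at -3.56 for Ptgs2.

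In the leukotriene branch, Alox5 (ENSMUSG00000025701) encodes 5-lipoxygenase and Alox5ap (ENSMUSG00000060063) the membrane protein that presents arachidonic acid to it. Alox5 was at 19.9, 15.9 and 16.9 CPM in healthy blood, 12.8, 8.30 and 8.40 in LLC blood and 20.5, 35.5 and 16.6 in tumor. LLC blood was below both other groups without overlap, and tumor overlapped healthy blood. The log2 fold change was 1.499 ± 0.27 for tumor against LLC blood (edgeR adjusted p = 0.000945) and -0.88 ± 0.27 for LLC blood against healthy blood (edgeR adjusted p = 0.0411). The latter call was lost in 6 of 18 alternative analyses, with adjusted p up to 0.152: with library totals alone (-0.85), without healthy blood 1, 2 or 3 (-0.78, -0.996 and -0.90) and without LLC blood 2 or 3 (-0.76 and -0.77). Tumor against healthy blood was 0.62 ± 0.26 and not called (edgeR adjusted p = 0.0562).

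Alox5ap was at 1059, 1013 and 1053 CPM in healthy blood, 969, 949 and 953 in LLC blood and 840.3, 677 and 695 in tumor. The 3 groups did not overlap in CPM, in descending order from healthy blood to tumor. After correction for library composition no comparison was called. The log2 fold change was -0.15 ± 0.15 between the blood groups (edgeR adjusted p = 0.527), -0.15 for tumor against LLC blood (95% interval -0.50 to 0.19) and -0.30 ± 0.15 for tumor against healthy blood (edgeR adjusted p = 0.110). These depended on the analysis: without LLC tumor 1 all 3 were called as lower, at -0.20, -0.35 and -0.55. With that library kept, the blood value was called in a fit of only the 6 libraries compared (-0.16). The tumor values were called with library totals (-0.38 against LLC blood and -0.50 against healthy blood), and that against healthy blood also with upper-quartile factors (-0.41).

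Lta4h (ENSMUSG00000015889) encodes the hydrolase that makes leukotriene B4, a chemoattractant, and Ltc4s (ENSMUSG00000020377) the synthase that makes leukotriene C4. Lta4h was at 71.3, 84.8 and 81.8 CPM in healthy blood, 112, 126 and 133 in LLC blood and 106, 133 and 128 in tumor. Both groups from tumor-bearing mice lay above healthy blood and overlapped each other. The log2 fold change was 0.61 ± 0.09 for LLC blood (edgeR adjusted p = 0.00163) and 0.79 ± 0.09 for tumor against healthy blood (edgeR adjusted p = 4.52e-05). Tumor and LLC blood differed by 0.18 (95% interval -0.02 to 0.38; edgeR adjusted p = 0.104). With size factors of other kinds this value was -0.01 (library totals) or was called as higher (0.24, RLE size factors; edgeR adjusted p = 0.0323).

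Ltc4s was rare in blood, with 5, 15 and 7 counts in healthy blood and 2, 1 and 3 in LLC blood, and had 60, 121 and 34 counts in tumor. The 3 groups did not overlap in CPM, and the LLC blood counts were at the detection limit. The ratio of summed counts, corrected for library totals, of tumor to LLC blood was 48.2 (95% interval 21.8 to 133, counting error only), with edgeR adjusted p = 6.36e-05. Against healthy blood it was 10.9 (7.31 to 17.0), with edgeR adjusted p = 0.000302. Healthy blood held 4.41 times the level of LLC blood (1.78 to 13.1), which was not called (edgeR adjusted p = 0.0692) and was called in 3 of 17 alternative analyses (DESeq2, without LLC tumor 2 and without LLC tumor 3).

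Markers of other cells moved with several of these genes. The sum of 6 fibroblast markers was 15.5, 3.13 and 5.03 CPM in healthy blood, 409, 1.38 and 1.93 in LLC blood and 936, 3467 and 3921 in tumor, with Col3a1 alone at 713, 2801 and 3099 CPM in tumor. LLC tumor 1 was lowest among tumor libraries in this sum, in Ptges and in Ptgs1, and highest in Ptgs2. LLC blood 1 was highest among the blood libraries in the sum and in Ptgs2, Ptges and Ptgs1. In that library the sum was mostly Col1a1 (212 CPM) and Col1a2 (131 CPM), with Col3a1 at 57.2 CPM. The make-up differed in tumor, where Col1a1 was at 13.5, 110 and 129 CPM, below Col3a1 in each library. Without LLC tumor 1 the tumor changes of Ptges and Ptgs1 against LLC blood were 3.69 and 2.52. The sum of 6 tumor cell and epithelium markers was 8.15 to 9.79 CPM in healthy blood, 3.94 to 6.31 in LLC blood and 63.4, 102 and 76.3 in tumor. Most of the tumor sums was Cdh1, at 52.8, 58.3 and 39.2 CPM and so lowest in LLC tumor 3. Krt18 was at 3.97, 34.8 and 22.0 CPM and Krt8 at 6.32, 8.16 and 13.7 CPM, both lowest in LLC tumor 1, as Ptges and Ptgs1 were. Of 4 tested genes of this list, 3 rose and 1 fell in tumor against LLC blood (29.6% and 31.7% of all tested genes). The parts of fibroblast and tumor cell RNA in these results were not tested.

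For Hpgd, the sum of 9 T and NK cell markers was 158, 266 and 414 CPM in healthy blood, 21.7, 29.5 and 36.8 in LLC blood and 2.53, 4.08 and 1.47 in tumor. Its order over the groups was that of Hpgd, and 8 of its 8 tested genes fell from healthy to LLC blood (9.61% of all tested genes). Within healthy blood the sum spanned 158 to 414 CPM while Hpgd spanned 192 to 239 CPM. The spread differed between genes of the list. Ncr1 spanned only 11.2 to 12.6 CPM there and Klrb1c 17.65 to 20.97 CPM. The other genes of the list varied more in proportion, such as Gzma (86.3 to 226 CPM) and Cd8a (8.36 to 45.2 CPM). The part of T and NK cell RNA in the Hpgd result was not tested. For Hpgds, Ltc4s and Alox5, which mast cells and basophils also express, a list of 10 markers of these cells summed to 43.2 to 48.8, 37.7 to 45.2 and 49.8 to 62.8 CPM. Most of the blood sums was Il3ra, at 35.5 to 43.0 CPM in LLC blood and 17.7 to 23.8 in tumor, where it was called as lower. The other 3 tested genes, Hdc, Gata2 and Tpsb2, rose in tumor against LLC blood (29.6% of all tested genes). Hdc went from 1.40 to 2.08 CPM to 26.4 to 29.4 CPM, and Tpsb2 was at 0 in blood and at 0.993, 1.77 and 1.81 CPM in tumor. The defining gene Cpa3 was at 0.632, 2.22 and 1.21 CPM in tumor and 0 in LLC blood. For Ptgs1 and Tbxas1, which platelets also express, 8 platelet markers summed to 8.29 to 21.6, 4.73 to 7.82 and 139 to 223 CPM. Pf4 gave 111, 119 and 70.5 CPM of the tumor sums. The parts of these cells in the results were not tested.

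**Figure D4:**
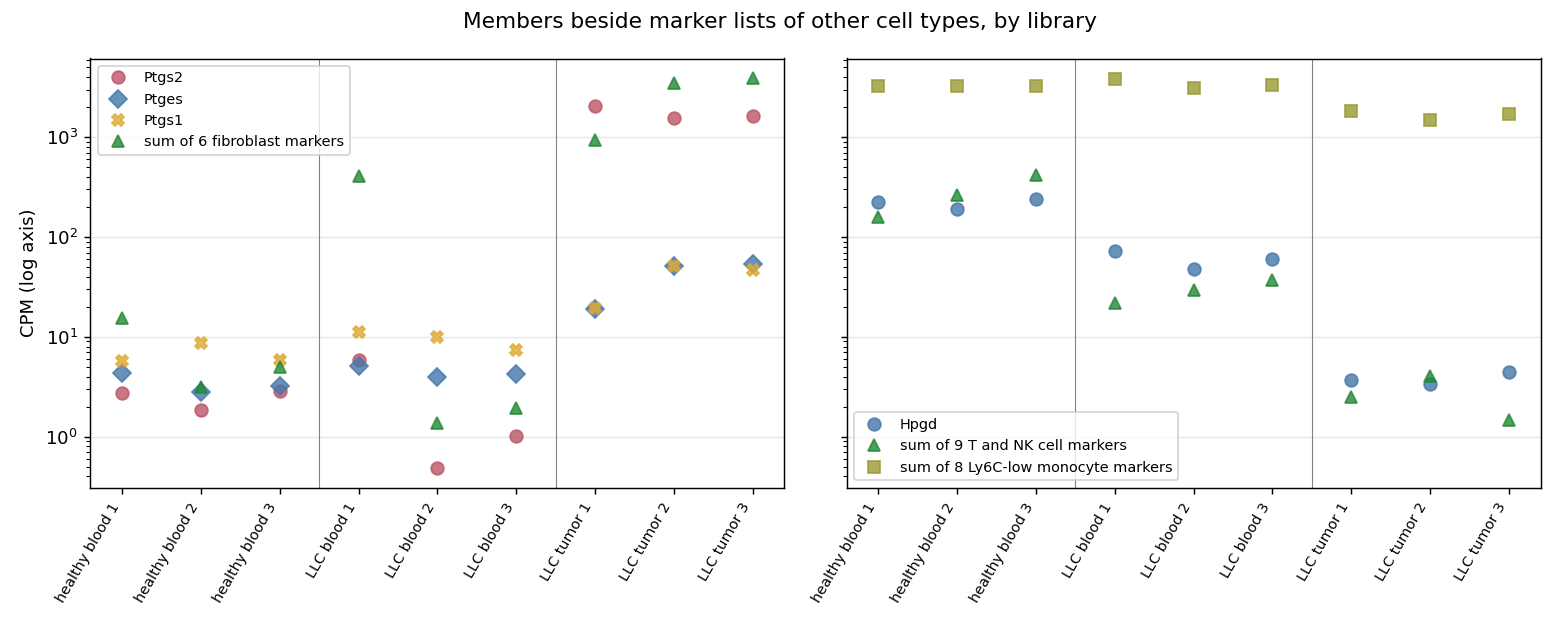
CPM on a log axis for each of the 9 libraries: Ptgs2, Ptges and Ptgs1 with the sum of 6 fibroblast markers (left), and Hpgd with the sums of 9 T and NK cell and 8 Ly6C-low monocyte markers (right). Circles, diamonds and crosses are single genes, and triangles and squares are marker sums. LLC blood 1 stands apart in the fibroblast sum at 409 CPM. The T and NK cell sum spans 158 to 414 CPM across the healthy blood libraries, of which Gzma gives 86.3 to 226. In tumor, Cd9 gives 401 to 515 CPM of the Ly6C-low monocyte sum and Nr4a1 467 to 601.

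The genes closest in pattern were sought among the 9717 tested genes whose mean reached 5 CPM, by the root mean square difference of centred log2(CPM + 0.25) over the 9 libraries. Those nearest Ptgs2 were Vegfa, an angiogenic growth factor (0.34), and the chemokine genes Cxcl2 (0.39) and Cxcl3 (0.54), whose reads were in part shared with other genes. Their mean levels were 2.24, 2.06 and 1003 CPM for Vegfa and 3.79, 2.01 and 1728 CPM for Cxcl2, in healthy blood, LLC blood and tumor. Those nearest Ptges were Ppfibp1 (0.22), Fnbp1l (0.23) and Efemp2 (0.25). Those nearest Hpgd were S1pr5, a sphingosine-1-phosphate receptor gene (0.29), Ncr1, which encodes an activating receptor of NK cells (0.38), and Prf1, which encodes perforin (0.47). S1pr5 had means of 84.3, 34.9 and 1.35 CPM, and Ncr1 had 12.1, 3.25 and 0.0301 CPM.

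Of 62 other genes of the pathway, 61 were in the table and 36 were tested. In tumor against LLC blood 12 rose, 12 fell and 12 were not called, with a median log2 fold change of -0.08. Over all tested genes 29.6% were called as higher and 31.7% as lower, so the 24 of 36 called lay near the 61.3% of the background. Between the blood groups 8 rose and 4 fell (median 0.09; 14.0% and 9.61% of all tested genes), and between tumor and healthy blood 13 rose and 13 fell (median 0.29; 33.5% and 33.0%). The 12 calls between the blood groups became 7 without healthy blood 2, LLC blood 2 or LLC blood 3.

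Among 6 tested genes listed under arachidonate release, 3 rose and 2 fell in tumor against LLC blood. The shares over all tested genes were 29.6% and 31.7%, the background for the role counts that follow in this comparison. The 3 were Pla2g4a, Pla2g6 and Pla2g7. The list is broad, and that Pla2g7 releases arachidonate was not examined. Pla2g4a, the cytosolic phospholipase A2 that supplies the cyclooxygenases and 5-lipoxygenase, was at 30.6, 37.5 and 37.5 CPM in LLC blood and 76.7, 85.0 and 79.4 in tumor. The groups did not overlap, and the log2 fold change was 1.39 ± 0.12 (edgeR adjusted p = 9.96e-06). Among 6 other prostanoid synthases, 2 rose and 2 fell. Prxl2b, a prostamide and prostaglandin F synthase, was at 33.4, 12.1 and 12.1 CPM in tumor, with LLC tumor 1 apart, and at 6.13 to 7.65 CPM in LLC blood. Its log2 fold change was 1.77 ± 0.44 and 0.96 without LLC tumor 1. Among 8 other lipoxygenase and leukotriene genes, 5 rose in LLC blood against healthy blood (14.0% of all tested genes), and 2 rose and 3 fell in tumor against LLC blood. The first count was 2 when healthy blood 1, healthy blood 3, LLC blood 2 or LLC blood 3 was left out, and 1 when healthy blood 2 was. The 3 that fell became 1 on leaving out library 2 or 3 of any group, and without LLC tumor 2 the count that rose was 1. Dpep2, a dipeptidase that converts leukotriene D4, rose in both steps, by 0.65 ± 0.15 and 1.18 ± 0.15. The first call was lost on leaving out any healthy blood library (0.65, 0.58 and 0.66), LLC blood 2 (0.60) or LLC blood 3 (0.62).

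Of 5 other breakdown enzymes, 1 was called in tumor against LLC blood, as lower, and 2 were without LLC tumor 1. That gene was Ptgr1, a prostaglandin reductase, at 20.5 to 22.0 CPM in healthy blood, 45.1 to 57.3 in LLC blood and 28.7 to 33.0 in tumor. Its log2 fold change was 1.27 ± 0.14 between the blood groups (edgeR adjusted p = 0.00045), opposite in sign to that of Hpgd, and -0.57 ± 0.14 in tumor against LLC blood. Of 3 tested transporters, Abcc1, which exports leukotriene C4, rose from 54.3 to 71.9 CPM in LLC blood to 218 to 257 in tumor (2.14 ± 0.12; edgeR adjusted p = 9.9e-07). Abcc4, which exports prostaglandin E2, rose by 0.74 in LLC blood and fell by 0.95 in tumor against LLC blood.

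Of 4 tested prostanoid receptors 3 fell in tumor against LLC blood, where 31.7% of all tested genes fell and 29.6% rose. All 4 tested genes listed as leukotriene and lipoxin receptors, with the chemerin receptor gene Cmklr1 among them, rose in that comparison. Ptgir, the prostacyclin receptor, was at 81.9 to 86.3 CPM in LLC blood and 12.1 to 15.2 in tumor (-2.38 ± 0.07; edgeR adjusted p = 7.49e-08). Ptger2, a prostaglandin E2 receptor, fell by 1.02 (SE 0.23). Ptger4, another receptor of that lipid, was not called and was at 113, 23.6 and 28.7 CPM in tumor, where LLC tumor 1 stood apart. Its log2 fold change was 0.90 ± 0.59, and -0.35 without that library. Cysltr1, a receptor of cysteinyl leukotrienes, rose by 1.33 ± 0.20, Ltb4r1, the high-affinity leukotriene B4 receptor, by 0.72 ± 0.12, and Cmklr1, the chemerin receptor, by 1.94 ± 0.15. Fpr2, a formyl peptide and lipoxin receptor, fell by 1.16 in LLC blood against healthy blood and rose by 1.39 in tumor against LLC blood. The call between the blood groups was lost without LLC blood 2 or 3 (-1.15 and -1.11).

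**Figure D5:**
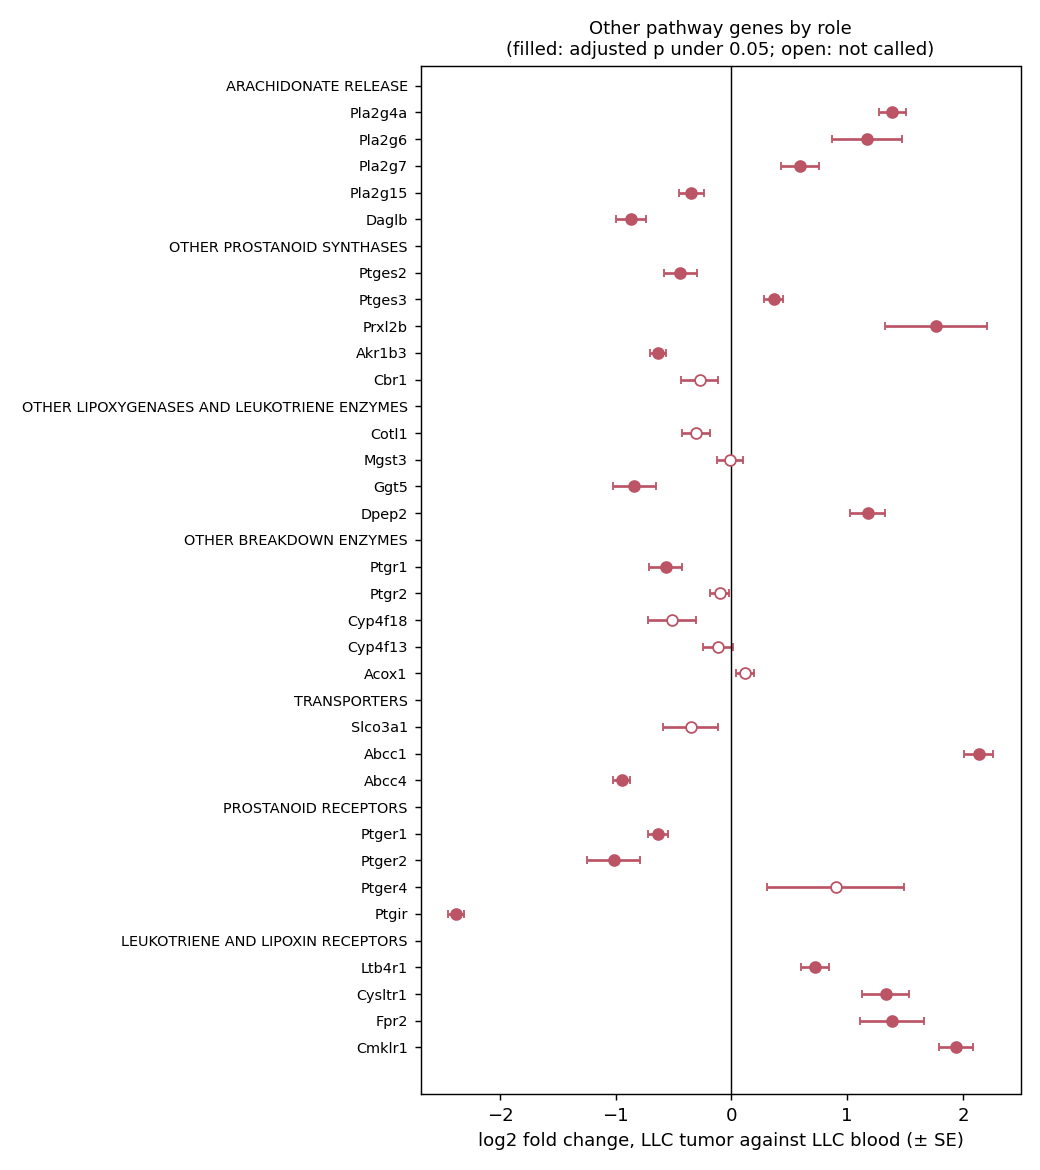
Log2 fold change of LLC tumor against LLC blood with its standard error for the other pathway genes with at least 5 CPM in a group, ordered by role. Filled points passed an adjusted p of 0.05. All 4 genes listed as leukotriene and lipoxin receptors, with the chemerin receptor gene Cmklr1 among them, lie above 0. Ptgir lies lowest at -2.38.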

How the data were processed

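RNA-seq of 9 libraries (3 groups of 3) was used; the 22 samples of other assays were not analysed here. Per the labels, RNA was taken from sorted cells with TRIzol. Per the submitters' processing notes, the tools named for the series include Trim Galore 0.6.7, cutadapt 3.4, STAR 2.6.1d, Salmon 1.9.0 and edgeR, with build mm10; their roles and order are not given in the sources used here. The authors deposited estimated counts per gene. Of these, 8.56% to 9.73% per library were not whole numbers, as where reads are divided between genes. Among the genes named, Ly6c2, Lyz2, Cxcl2, Cxcl3 and Pla2g7 had such values in all 9 libraries, Fpr2 in 7, Klrb1c in 6, Csf3r in 5 and Pou2f2 in 4. Some others had them in fewer. The authors also deposited a CPM table of 10693 genes; 100% of its values were whole reads within 0.01 read, and edgeR on those reads called 2584, 6792 and 7236 genes for LLC blood against healthy blood, tumor against LLC blood and tumor against healthy blood.

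Estimated counts were rounded and tested in edgeR 4.0.16 (R 4.3.3; TMM factors, filterByExpr, quasi-likelihood test, all 9 libraries in 1 fit, Benjamini-Hochberg over 12337 genes, threshold 0.05). CPM values in the text are counts scaled to the library total, without TMM factors. Alternatives used limma 3.58.1 and DESeq2 1.42.0. The procedure was tested on simulated data, where DESeq2 made more false calls than edgeR or limma. The pass limit for DESeq2, an alternative only, was relaxed after the first run of that test. The simulation changed a small set of genes, evenly up and down, in the tumor libraries alone. It therefore does not cover changes as broad as the 61.3% and 66.5% of genes called in the tumor comparisons. Values at 3 counts or fewer are at the detection limit; the intervals of count ratios cover counting error only, and those of log2 fold changes come from the edgeR standard error and include the spread between libraries. All members were named; other pathway genes were named at a group mean of 5 CPM or more. The members and lists were chosen with earlier results of these data known. Blood columns headed BM were taken as blood monocytes from the sample titles and descriptions; the tables alone do not tell this from bone marrow. Ly6g and Ptgr3 were not used here. Promoters came from RefSeq, GRCm38.p6, by symbol, for 9 of 10 members.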

Additional observations from a re-analysis of the deposited data

How the results depend on the processing

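The calls and fold changes of the 10 genes and of the other pathway genes given with a fold change were recomputed under other size factors, tools and filters and with each library left out; for the other pathway genes this was chosen after seeing the data. The ratios were recomputed with other pseudocounts and libraries left out, and the marker sums and nearest genes were not recomputed. In tumor against LLC blood, and in tumor against healthy blood, the calls of Ptgs1, Ptgs2, Ptges, Hpgds, Ltc4s and Hpgd kept their direction and side of the threshold in all 18 alternatives, as did Hpgd and Lta4h between the blood groups. The number of the 10 genes called ranged from 2 to 4 between the blood groups (4 with DESeq2, among others) and from 7 to 8 in both tumor comparisons. Requiring a change of at least 2-fold left 1 of them between the blood groups, and 769, 3538 and 3989 genes of all tested in the 3 comparisons.

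Over all genes, 2917 were called between the blood groups, 4889 with only the 6 libraries compared, and 1494 at the lowest (LLC blood 2 left out) and 5064 at the highest (LLC tumor 1 left out) when single libraries were dropped. Of those calls 59.4% were higher, but 46.3% with upper-quartile factors. For tumor against LLC blood the share was 48.3%, and 36.3% with library totals, where the median of all genes shifted to -0.23. Uncalled fold changes reversed sign in places. With library totals alone, Lta4h was -0.013 and Tbxas1 -0.011 in tumor against LLC blood, and Tbxas1 -0.082 in tumor against healthy blood. With single libraries left out, Ptgs2 between the blood groups ranged from -1.65 to 0.28 (0.23 without LLC blood 3), Hpgds there from -0.72 to 0.35, Tbxas1 in tumor against LLC blood from -0.042 to 0.43, Tbxas1 in tumor against healthy blood from -0.19 to 0.33, and Ptger4 in tumor against LLC blood from -0.35 to 1.30. A pseudocount of 1 CPM gave 14.47 for the Ptgs2 to Hpgd change in tumor against healthy blood. The called changes of Pla2g4a, Prxl2b, Dpep2, Ptgr1, Abcc1, Abcc4, Ptgir, Ptger2, Cysltr1, Ltb4r1, Cmklr1 and Fpr2 in tumor against LLC blood kept their call and direction in each alternative that gave a value. The causes were not tested.

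Deviations of log2(CPM + 0.25) from the group mean were correlated between libraries of different groups, over tested genes whose mean reached 5 CPM. Between the blood groups, same-numbered libraries were at 0.38, 0.28 and 0.08, and differently numbered ones at -0.36 to 0.25. In the tumor comparisons these were at -0.16 to 0.11 and at -0.09 to 0.15. The main fit did not take the numbers to pair samples, although 0.38 and 0.28 lay above every differently numbered value. What these values reflect was not tested. With the replicate block, 2788, 7455 and 8092 genes were called, and 3, 7 and 7 of the 10 genes. Depth limited Hpgds and Ltc4s, with 15 or fewer counts in every blood library.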

Other observations

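Alox15, a 15-lipoxygenase gene outside the members, did not pass the filter on low counts and was not tested. It stood at 0, 16.3 and 0.368 CPM in the healthy blood libraries, at 0, 1.25 and 0.193 CPM in LLC blood and at 0.271, 0.266 and 0.259 CPM in tumor. The library with 16.3 CPM, healthy blood 2, also held the highest sum of 6 B cell markers, at 167 CPM against 17.3 and 24.3 CPM in the others of its group. Its sum of 11 neutrophil markers was 902 CPM against 717 and 675. Within that list S100a9 was at 90.7 CPM against 0.929 and 2.51, and Csf3r, the largest part, at 543 against 540 and 498. The parts of these cells in the Alox15 value were not tested.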
